A study of Mus musculus with 4 samples.

Results

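The calcineurin, NFAT and RCAN genes were the 10 rows of the expected count table whose symbols are Ppp3ca, Ppp3cb, Ppp3cc, Ppp3r1, Rcan1, Rcan2, Nfatc1, Nfatc2, Nfatc3 and Nfatc4, out of 51826 rows. They were chosen by name, and all 10 passed the filter on low counts that left 16120 genes for testing. PolyA RNA was sequenced from the quadriceps of 4 sedentary male mice aged about 20 weeks (2 WT mice and 2 Mef2dα2 Eko mice), with 1 library per mouse. The Eko mice carry a CRISPR-Cas9 germline deletion of the muscle-specific α2 exon of Mef2d on a C57BL6/J background, so every tissue of the mouse lacks the exon, and the mice of both genotypes otherwise share background, sex, age and standard chow. The founder line of the sequenced mice is not given in the labels, and p-values rest on the spread between 2 mice of a genotype.

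Calcineurin is a calcium- and calmodulin-dependent phosphatase made of a catalytic A subunit, encoded by Ppp3ca, Ppp3cb or Ppp3cc, and a calcium-binding B subunit, encoded in most tissues by Ppp3r1. When calcium rises in a muscle fibre, calcineurin removes phosphates from NFAT transcription factors, which then enter the nucleus. In skeletal muscle, this pathway is known for its part in the slow, oxidative fibre program, where NFAT and MEF2 factors act on many of the same genes. RCAN proteins bind calcineurin and inhibit it, and Rcan1 is itself a classic NFAT target through an internal promoter, which makes it a feedback regulator.

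The RCAN genes are shown by their promoters because both can start at several sites, whereas the deposited values are 1 count per gene and do not tell the starts apart. The windows below come from RefSeq on GRCm38.p6 and run 5′ to 3′ from 250 bases before to 50 bases after a start site. Capitals mark the NFAT core GGAAA on either strand (TTTCC on the other). Rcan1 has an upstream window at chr16:92466120-92466419 and an internal window at chr16:92400029-92400328, both on the minus strand, with starts 66091 bases apart. The windows of Rcan2, on the plus strand, are at chr17:43801102-43801401, chr17:43801601-43801900 and chr17:43952749-43953048.
Rcan1 upstream: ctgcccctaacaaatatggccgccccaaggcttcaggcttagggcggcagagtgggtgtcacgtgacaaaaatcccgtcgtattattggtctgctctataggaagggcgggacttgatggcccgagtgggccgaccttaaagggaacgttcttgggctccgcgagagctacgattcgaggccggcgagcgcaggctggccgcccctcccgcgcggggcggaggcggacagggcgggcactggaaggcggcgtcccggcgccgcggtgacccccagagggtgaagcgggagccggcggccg
Rcan1 internal: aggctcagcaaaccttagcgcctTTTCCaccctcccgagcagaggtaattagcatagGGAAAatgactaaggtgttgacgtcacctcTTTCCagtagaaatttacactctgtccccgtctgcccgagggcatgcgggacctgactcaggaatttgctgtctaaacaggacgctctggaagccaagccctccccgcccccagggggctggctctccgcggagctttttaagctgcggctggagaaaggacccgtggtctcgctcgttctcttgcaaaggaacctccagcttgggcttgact
Rcan2 first: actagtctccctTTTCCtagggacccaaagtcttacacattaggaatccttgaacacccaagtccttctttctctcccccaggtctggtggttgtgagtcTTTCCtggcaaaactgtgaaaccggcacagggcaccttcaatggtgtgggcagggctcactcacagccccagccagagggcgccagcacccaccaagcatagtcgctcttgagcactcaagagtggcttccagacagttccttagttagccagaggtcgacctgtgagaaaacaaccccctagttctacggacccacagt
Rcan2 near: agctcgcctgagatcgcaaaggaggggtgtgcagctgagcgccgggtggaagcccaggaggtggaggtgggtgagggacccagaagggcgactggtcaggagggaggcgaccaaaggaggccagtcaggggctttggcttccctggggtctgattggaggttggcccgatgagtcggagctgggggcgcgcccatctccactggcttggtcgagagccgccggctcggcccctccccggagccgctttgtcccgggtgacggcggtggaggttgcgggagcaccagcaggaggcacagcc
Rcan2 distal: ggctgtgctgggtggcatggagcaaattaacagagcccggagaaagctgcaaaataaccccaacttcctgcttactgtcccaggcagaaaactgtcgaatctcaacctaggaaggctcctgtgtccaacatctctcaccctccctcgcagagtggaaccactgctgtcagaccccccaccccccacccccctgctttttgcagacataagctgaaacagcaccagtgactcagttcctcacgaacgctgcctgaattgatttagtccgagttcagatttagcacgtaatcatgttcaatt

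The upstream window of Rcan1 held no GGAAA core, while its internal window held 3, on both strands, a number reached by 9.42% of all 32851 promoter windows of this length. The first window of Rcan2 held 2 cores, as many as or more than which were in 26.7% of windows, and its other windows held 0. At least 1 core stood in 61.3% of all windows, so its presence alone sets few promoters apart. Of the 10 members, 7 had 12 windows among those read, and 7 of the 12 held a core. No window was read for Ppp3ca, Ppp3cc or Nfatc1. The search left out members' windows on chromosome 18, where Nfatc1 lies. The highest number among the 12 was in Ppp3cb, with 4 cores, as many as or more than which were in 2.65% of windows. The MEF2 consensus, searched by its 10-letter degenerate form on both strands, was in 3.19% of all windows and in 0 of the 12. These are letter matches in short windows and not binding sites.

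The libraries held between 72626757 and 85176059 expected counts, so a level of 3 counts corresponded to between 0.0352 and 0.0413 CPM (counts scaled to library size), which covers counting error only. WT replicate 1 stood apart from the rest, with a chi-square per gene between 130 and 231 against the other libraries, where the other pairs lay between 38.7 and 45.3. Mef2d counts were 19687 and 18393 for WT and 21695 and 17206 for Eko mice, but a count per gene does not show the α2 exon and checks no genotype. The myofibre markers Acta1, Ckm and Myh4 were each at 13004 CPM or more in every library, whereas the summed level of 6 lymphocyte markers was between 2.04 and 2.59 CPM. In bulk muscle, fewer cells of a type and less RNA per cell cannot be told apart.

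The genotype comparison used edgeR's quasi-likelihood test on 16120 genes, with Benjamini-Hochberg adjustment and a threshold of 0.05, which called 67 genes, or 0.416% of those tested. None of the 10 members passed (0 of 10). At an unadjusted p below 0.05 there were 2 members, Rcan2 and Ppp3ca, against 11.6% of all genes. DESeq2 called 1 member, Rcan2, and 1.97% of all genes, and limma-voom called 0 members and 0.354% of all genes. Both Eko mice were below both WT mice for Rcan2 and Ppp3cc, 2 of the 10 members, as they were for 23.0% of all genes. Both Eko mice were above both WT mice for Ppp3ca and Ppp3cb, also 2 of the 10, as for 20.8% of all genes. The median log2 fold change of the members was 0.05, beside -0.01 over all genes tested. With 2 mice per genotype the smallest p of an exact permutation test, two-sided, is 0.333, and none is given for single values.

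**Figure D1:**
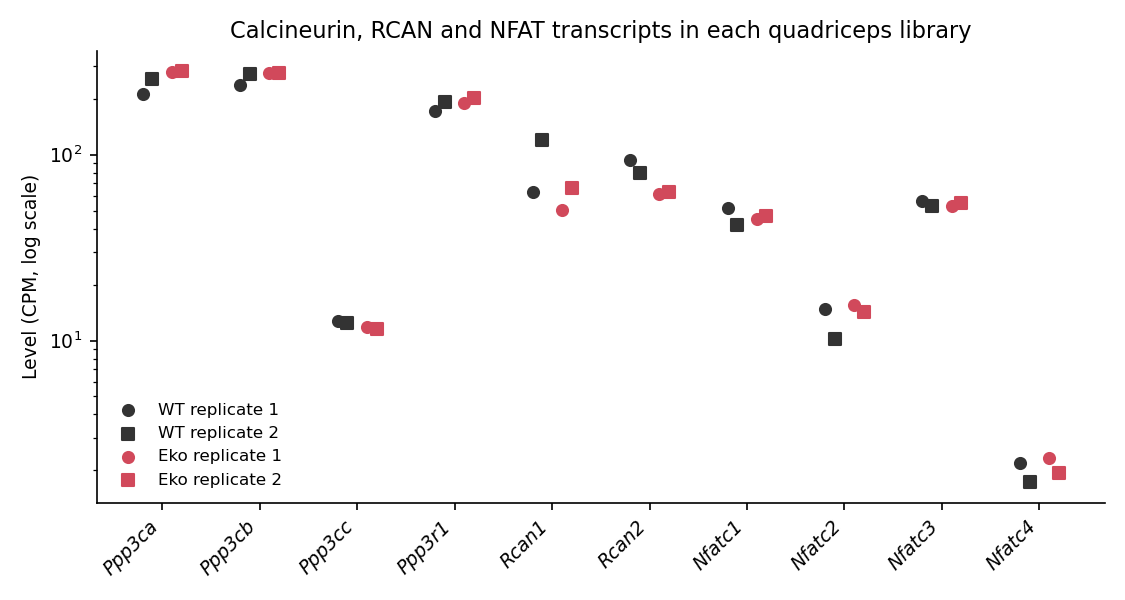
Level of each member in each library, in CPM on a log scale, with circles for replicate 1, squares for replicate 2, black for WT and red for Mef2dα2 Eko. Rcan1 spread most widely, from 50.1 to 120 CPM, and the 2 Eko libraries lay below both WT libraries in Rcan2.

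Rcan2 encodes a calcineurin inhibitor of muscle and brain and had the smallest unadjusted p of the members. It was at 93.4 and 79.7 CPM in WT and at 61.4 and 62.6 CPM in the Eko mice. Both Eko mice were below the lower WT mouse, by more than they differed from each other. WT mice averaged 86.6 ± 9.67 CPM and Eko mice 62.0 ± 0.876 CPM (SD, n = 2 each), or 71.6% of WT. Its log2 fold change was -0.48 (SE 0.09, 95% confidence interval -0.69 to -0.27), with an adjusted p of 0.118 in edgeR's quasi-likelihood test, so Rcan2 did not pass. By unadjusted p it ranked at place 140 of the 16120 genes.

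Whether Rcan2 was called differed between tests. DESeq2 gave an adjusted p of 0.000782 for a log2 fold change of -0.47. The edgeR test without a filter on low counts, which called 3.25% of 24621 genes, gave an adjusted p of 2.97e-06 for -0.48. Leaving out WT replicate 2 gave -0.58, and leaving out WT replicate 1, the library that stands apart, gave -0.36. With 1 WT library left there is no spread between WT mice, so no p is given. The direction was the same under all 10 alternatives.

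The levels of other cell types' markers are given beside this result. The summed level of 6 macrophage markers was 32.0 and 26.1 CPM in WT and 24.5 and 17.7 CPM in Eko mice, with both Eko mice below both WT mice for 4 of the 6 markers, as for 23.0% of all genes. The summed level of 5 adipocyte markers was 119 and 82.6 CPM in WT and 86.0 and 65.6 CPM in Eko mice. Most of this sum was Fabp4, at 82.9% of its WT mean in Eko mice. Adipoq, Plin1 and Cidec were at 46.7%, 43.0% and 38.6% of WT, and Lep was at 115%. All 5 adipocyte markers overlapped between genotypes. Schwann cell markers summed to 23.2 and 25.8 CPM in WT and 28.6 and 34.7 CPM in Eko mice. Both Eko mice were above both WT mice for 3 of 4, as for 20.8% of all genes. Fibroblast markers summed to 318 and 328 CPM in WT and 355 and 276 CPM in Eko mice, with both Eko mice below both WT mice for 3 of 5. Smooth muscle and pericyte markers summed to 271 and 258 CPM in WT and 283 and 318 CPM in Eko mice. Satellite cell markers summed to 4.06 and 3.81 CPM in WT and 4.18 and 5.30 CPM in Eko mice. In both lists, both Eko mice were above both WT mice for 2 of 4 markers, beside 20.8% of all genes. Endothelial markers summed to 162 and 145 CPM in WT and 138 and 162 CPM in Eko mice, and overlapped. No marker of the lists in this paragraph passed edgeR's quasi-likelihood test, where the lowest adjusted p was 0.226, or was at 0 in all libraries. Their part in the value of Rcan2 was not tested.

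Among 12132 other genes with a mean of at least 1 CPM, the 3 whose centred log2 CPM over the 4 libraries lay nearest to that of Rcan2 were C3, Ccl6 and Zfp428, at root mean square differences of 0.0175, 0.0273 and 0.0298. C3, a complement component, was at 50.8 and 42.1 CPM in WT and 32.9 and 33.0 CPM in Eko mice. Likeness over 4 libraries is a weak description, and genes so chosen share the order of the libraries by construction.

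Rcan1 encodes the inhibitor that calcineurin itself induces. It was at 63.0 and 120 CPM in WT and at 50.1 and 66.0 CPM in the Eko mice. WT replicate 2 alone was high, and the genotypes overlapped, since Eko replicate 2 was above WT replicate 1. WT mice averaged 91.7 ± 40.5 CPM and Eko mice 58.1 ± 11.2 CPM (SD, n = 2 each). The log2 fold change was -0.66 (SE 0.28, 95% confidence interval -1.33 to 0.0046, adjusted p = 0.436 in edgeR's test), the largest in size among the members and within the spread between mice.

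A single WT mouse set this value. Without WT replicate 2 the log2 fold change of Rcan1 was -0.11, and without WT replicate 1 it was -1.05. Without the filter on low counts, edgeR gave an adjusted p of 4.92e-12 for -0.66, whereas DESeq2 gave 0.798 for -0.65. Slow-fibre myosin Myh7, chosen after its values were seen, was also highest in WT replicate 2, at 339 CPM, but was next highest in Eko replicate 1, at 237 CPM, the library with the lowest Rcan1. Foxo1, a transcription factor of fasting and atrophy, was likewise highest in WT replicate 2, at 51.5 CPM, and lay between 26.5 and 38.5 CPM in the other libraries. The part of these in the spread of Rcan1 was not tested.

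**Figure D2:**
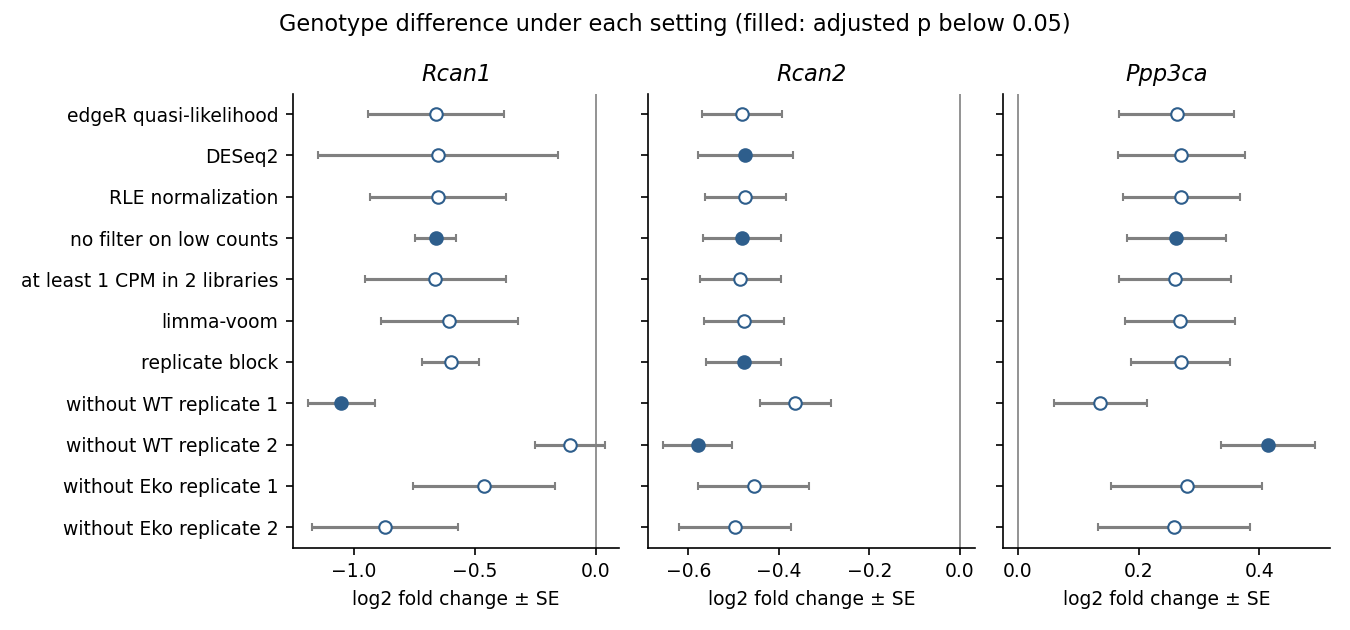
Log2 fold change of Rcan1, Rcan2 and Ppp3ca, Eko against WT, with 1 SE, under edgeR's test and each of 10 alternatives, filled where the adjusted p was below 0.05. With a mouse left out, 1 genotype has 1 library and no spread of its own, so the filling there is not read. Rcan1 ran from -1.05 to -0.11 when a WT mouse was left out, while Rcan2 stayed between -0.58 and -0.36.

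Ppp3ca and Ppp3cb were the most counted members, and Ppp3cc was among the least counted. Ppp3ca, the α catalytic subunit, was at 212 and 255 CPM in WT and at 279 and 281 CPM in the Eko mice. Both Eko mice were above both WT mice, but the WT mice differed more from each other than WT replicate 2 did from the Eko mice. The log2 fold change was 0.26 (SE 0.10, 95% confidence interval 0.04 to 0.49, adjusted p = 0.367 in edgeR's test), so Ppp3ca did not pass. It was 0.14 without WT replicate 1 and 0.41 without WT replicate 2. With no filter on low counts, Ppp3ca was at 0.26 (adjusted p = 0.0425 in edgeR's test).

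Ppp3cb, the β catalytic subunit, was at 238 and 272 CPM in WT and at 275 and 275 CPM in Eko mice. WT replicate 1 was low, and the other libraries were alike. The log2 fold change of 0.11 had a 95% confidence interval of -0.08 to 0.30 (adjusted p = 0.657 in edgeR's test), that is, from 0.944-fold to 1.23-fold. Without WT replicate 1 it was 0.02, and without WT replicate 2 it was 0.22. Ppp3cc, the γ catalytic subunit, which is known best from testis, was at 12.8 and 12.5 CPM in WT and at 11.9 and 11.5 CPM in Eko mice. The Eko mice were lower by a narrow margin (log2 fold change -0.11, 95% confidence interval -0.31 to 0.09, adjusted p = 0.667 in edgeR's test).

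Per kilobase of annotated exon, the catalytic subunits could be set against each other within a library. Ppp3ca made up 40.4% and 42.1% of their summed level in WT and 44.3% and 44.5% in Eko mice. Ppp3cb made up 51.4% and 51.0% in WT and 49.4% and 49.4% in Eko mice, and Ppp3cc made up 8.16% and 6.89% in WT and 6.30% and 6.09% in Eko mice. The shares sum to 100% and are not separate results. Both Eko mice were above both WT mice in the share of Ppp3ca and below them in the others, an arrangement that 20.8% and 23.0% of all genes show in their levels. No test is given for these shares.

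Ppp3r1, which encodes the regulatory B subunit in most tissues, was at 172 and 192 CPM in WT and at 190 and 202 CPM in Eko mice. The genotypes overlapped (log2 fold change 0.11, 95% confidence interval -0.08 to 0.29, adjusted p = 0.661 in edgeR's test). The value was 0.03 without WT replicate 1 and 0.20 without WT replicate 2. WT replicate 1 was the lowest library for Ppp3r1, as it was for Ppp3ca and Ppp3cb.

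The NFAT factors, which carry the calcineurin signal to the nucleus, all had overlapping genotypes. Nfatc1, the factor most tied to slow fibres, was at 52.0 and 41.9 CPM in WT and at 45.1 and 46.8 CPM in Eko mice, so both Eko mice lay between the WT mice. Nfatc3 was the steadiest member, at 56.1 and 52.7 CPM in WT and at 52.9 and 55.1 CPM in Eko mice. The log2 fold changes were -0.03 for Nfatc1 (95% confidence interval -0.28 to 0.22, adjusted p = 0.943 in edgeR's test) and -0.01 for Nfatc3 (95% confidence interval -0.18 to 0.16, adjusted p = 0.977 in the same test). For Nfatc3 the interval leaves room for levels from 0.885-fold to 1.12-fold of WT.

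Nfatc2, the NFAT of growing and regenerating fibres and of T cells, was at 14.8 and 10.2 CPM in WT and at 15.6 and 14.2 CPM in Eko mice. WT replicate 2 alone was low, and Nfatc2 had a log2 fold change of 0.25 (95% confidence interval -0.15 to 0.66, adjusted p = 0.617 in edgeR's test). Without WT replicate 2 it was 0.02, and without WT replicate 1 it was 0.55. The T cell marker Cd3e was at 1.90 and 2.39 CPM in WT and at 2.41 and 2.07 CPM in Eko mice, and the part of T cells in the values of Nfatc2 was not tested. Nfatc4 was the least counted member, with 166 and 140 counts for WT and 202 and 138 for Eko mice, or 2.19, 1.73, 2.34 and 1.93 CPM. Its log2 fold change of 0.13 had the widest interval among the NFAT factors, from -0.36 to 0.62 (adjusted p = 0.858 in edgeR's test).

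**Figure D3:**
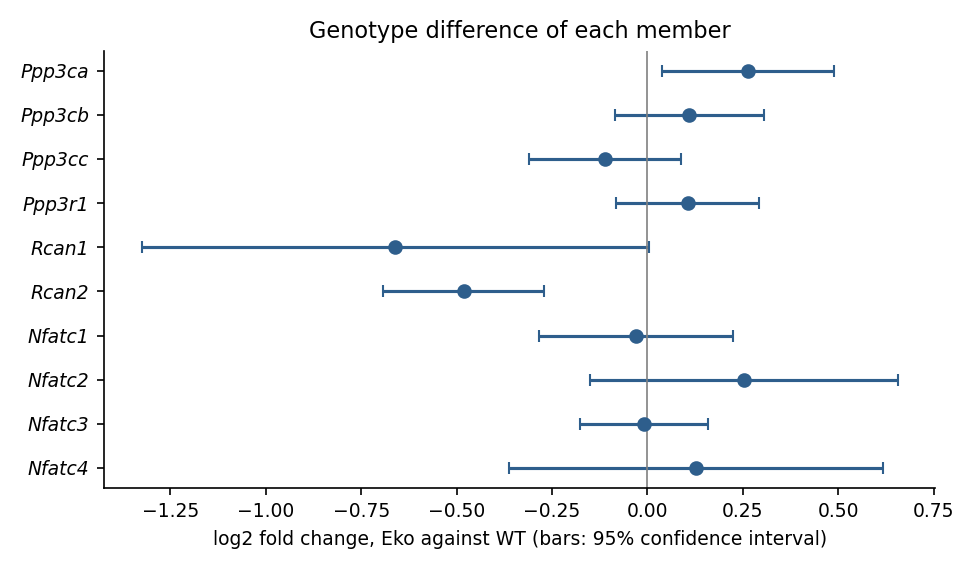
Log2 fold change of each member, Eko against WT, from edgeR's quasi-likelihood test, with bars for the 95% confidence interval. The interval excludes 0 for Rcan2, from -0.69 to -0.27, and for Ppp3ca, from 0.04 to 0.49, before adjustment over all genes, and it is widest for Rcan1.

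Levels between genes were compared as CPM per kilobase of the union of a gene's exons in GENCODE M21. Averaged over the 4 libraries, Ppp3r1 was highest at 58.6, followed by Ppp3cb at 30.1, Ppp3ca at 25.7, Rcan1 at 24.3 and Rcan2 at 17.0 CPM per kilobase. After these came Nfatc1 at 6.22, Nfatc3 at 4.62, Ppp3cc at 4.07, Nfatc2 at 1.29 and Nfatc4 at 0.353 CPM per kilobase. The ranges over libraries of neighbours in this order overlapped for Ppp3cb and Ppp3ca, for Ppp3ca and Rcan1, and for Rcan1 and Rcan2, and for no others. With the longest transcript as the length, Ppp3cb came before Ppp3r1 and the order of the other 8 was the same.

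Summed by role on the same per-kilobase scale, the RCAN genes were at 41.8 and 57.3 in WT and at 30.3 and 35.7 in Eko mice. The catalytic subunits summed to 52.5 and 60.6 in WT and to 63.1 and 63.3 in Eko mice, so for both sums the genotypes did not overlap, in opposite directions, as 23.0% of all genes lie below and 20.8% above. The NFAT factors summed to 13.5 and 11.4 in WT and to 12.4 and 12.6 in Eko mice, and overlapped. These sums are a description with no test, and the RCAN sum takes its WT spread from Rcan1.

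Positions are given on GRCm38. Rcan1 (ENSMUSG00000022951.16) is on chromosome 16 from 92391953 to 92470867 and has 7 annotated transcripts. Rcan2 (ENSMUSG00000039601.16) is on chromosome 17 from 43801351 to 44039516, also with 7 transcripts, and overlaps Gm24532 on the other strand, which had 0 counts in every library. Ppp3ca (ENSMUSG00000028161.17) is on chromosome 3 from 136670124 to 136937727, and its antisense neighbour 4930599N24Rik had at most 2 counts in a library. Ppp3r1 shares its strand and part of its span with Wdr92, which had between 389 and 502 counts, against at least 13057 for Ppp3r1. Rcan1 and Nfatc1 overlap Gm46555 and AC123818.1 on the other strand, with no row under these names, and the methods do not name a strand setting for counting.

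Beyond the members, 58 genes of the pathway in 6 lists were read from the same fit, and 57 of them were tested. None passed the threshold of edgeR's quasi-likelihood test (0 of 57, beside 0.416% of all genes). At an unadjusted p below 0.05 there were 6 of the 57, where the share of all genes was 11.6%, and their median log2 fold change was -0.03, beside -0.01 over all genes. Ppp3r2, the testis form of the B subunit, was at 0 counts in all 4 libraries, which allows a level of up to 0.0413 CPM.

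Of the close relatives, Rcan3 and Nfat5 were tested and did not pass. Rcan3 was at 5.43 and 4.93 CPM in WT and at 4.88 and 4.84 CPM in Eko mice (log2 fold change -0.09, adjusted p = 0.817 in edgeR's test). Nfat5, an NFAT relative that calcineurin does not control, was at 39.3 and 37.9 CPM in WT and at 41.1 and 37.3 CPM in Eko mice (log2 fold change 0.02, adjusted p = 0.941 in the same test).

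Among the 8 genes of calcium and calmodulin input, 3 had both Eko mice above and 2 had both Eko mice below both WT mice, beside 20.8% and 23.0% of all genes. Orai1, the pore of store-operated calcium entry, was at 27.6 and 32.1 CPM in WT and at 23.7 and 23.6 CPM in Eko mice (log2 fold change -0.33, SE 0.09, adjusted p = 0.251 in edgeR's test). Its calcium sensor Stim1 was at 209 and 231 CPM in WT and at 231 and 232 CPM in Eko mice, with WT replicate 1 low. The calmodulin gene Calm3 was at 361 and 361 CPM in WT and at 392 and 372 CPM in Eko mice (log2 fold change 0.08, adjusted p = 0.685).

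Of the 12 calcineurin binding and anchoring genes, 6 had both Eko mice below and 1 had both above both WT mice, beside 23.0% and 20.8% of all genes. Myoz2, whose product calsarcin-1 tethers calcineurin at the Z-disc of slow fibres, was at 39.3 and 39.7 CPM in WT and at 28.7 and 21.0 CPM in Eko mice. The WT mice were nearly alike and both Eko mice were below them (log2 fold change -0.67, SE 0.14, 95% confidence interval -0.99 to -0.34, adjusted p = 0.154 in edgeR's test). Akap6, an anchoring protein of the nuclear envelope, was at 83.9 and 101 CPM in WT and at 106 and 115 CPM in Eko mice (log2 fold change 0.26, adjusted p = 0.400). Homer2, a scaffold that competes with calcineurin for NFAT, was at 30.2 and 31.5 CPM in WT and at 27.8 and 28.1 CPM in Eko mice (log2 fold change -0.14, adjusted p = 0.497).

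The 13 genes for NFAT export kinases and nuclear transport had log2 fold changes from -0.18 to 0.09. The lowest of these was Xpo1, the exportin that carries NFAT out of the nucleus, at 33.2 and 30.2 CPM in WT and at 29.1 and 26.7 CPM in Eko mice (adjusted p = 0.466 in edgeR's test). Gsk3a and Mapk8, kinases that phosphorylate NFAT, had log2 fold changes of -0.10 (adjusted p = 0.660) and 0.09 (adjusted p = 0.684). Among 10 other calcineurin substrates, 3 had both Eko mice above both WT mice and 0 below, beside 20.8% and 23.0% of all genes. Tfeb, a lysosomal gene regulator that calcineurin activates, was at 55.3 and 60.4 CPM in WT and at 66.9 and 68.8 CPM in Eko mice (log2 fold change 0.23, adjusted p = 0.317). Mef2a was at 202 and 193 CPM in WT and at 204 and 217 CPM in Eko mice (log2 fold change 0.09, adjusted p = 0.665).

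The 12 genes listed as slow fibre genes, a textbook output of calcineurin in muscle, include Myh2 of fast oxidative fibres. They had a median log2 fold change of -0.21, and 0 of 12 passed. The oxygen carrier Mb was at 1430 and 1303 CPM in WT and at 1050 and 884 CPM in Eko mice (log2 fold change -0.50, adjusted p = 0.156 in edgeR's test). Myh2 was at 1576 and 1709 CPM in WT and at 1264 and 1041 CPM in Eko mice (log2 fold change -0.51, adjusted p = 0.161). For Mb and Myh2 both Eko mice were below both WT mice, whereas the other 10 overlapped between genotypes, so 2 of 12 stood below, beside 23.0% of all genes. Atp2a2, the slow-fibre calcium pump, was at 152 and 291 CPM in WT and at 168 and 126 CPM in Eko mice (adjusted p = 0.487), with WT replicate 2 alone high. Myh7 itself was at 113 and 339 CPM in WT and at 237 and 145 CPM in Eko mice, so mice of 1 genotype differed more than the genotypes did.

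**Figure D4:**
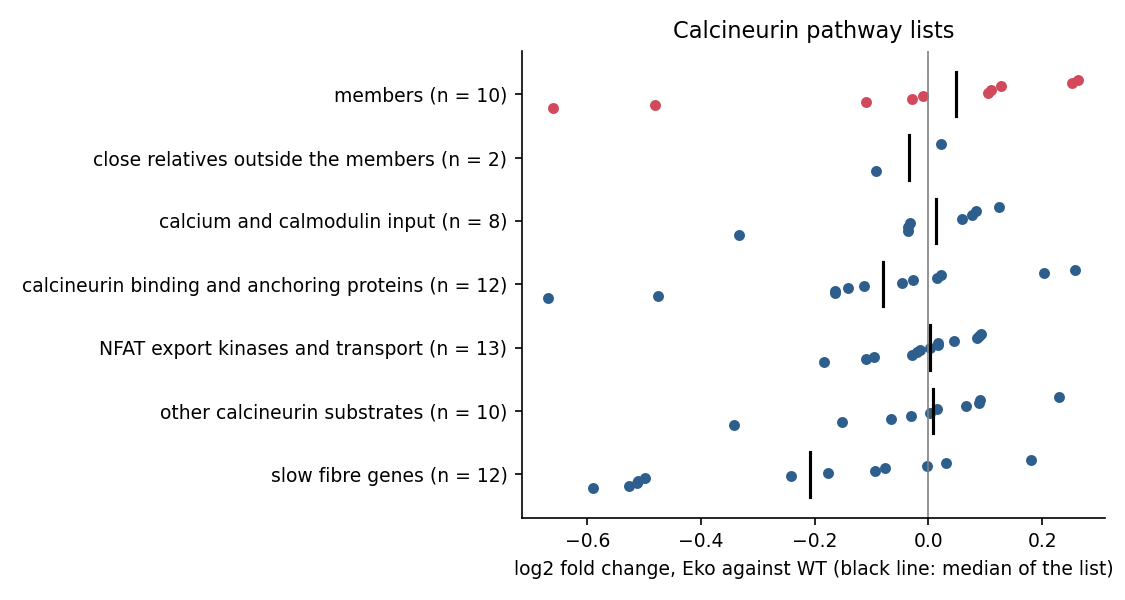
Log2 fold change, Eko against WT, of each tested gene in the member list and in the 6 pathway lists, with a black line at each list's median. None of the points passed the threshold in edgeR's test. Of the 6 pathway lists, the slow fibre list, which includes Myh2, has the lowest median, -0.21, and the list of export kinases and transport runs from -0.18 to 0.09.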

How the data were processed

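PolyA quadriceps RNA of 2 WT and 2 Mef2dα2 Eko mice was sequenced from stranded libraries. The authors aligned reads to mm10 and ran RSEM on Ensembl gene models to give 1 expected count for each gene, and the submitters' processing notes list STAR 2.6.1a. The deposited expected counts are not normalized, and 0 of them were other than whole numbers. Genotype and replicate number came from the labels. Genotypes were compared in R 4.3.3 with edgeR 4.0.16 (TMM, default filter on low counts, quasi-likelihood test, Benjamini-Hochberg adjustment, genotype as the only term, prior count 0.125). Standard errors came from the log2 fold change and F statistic. CPM used TMM-scaled totals of the genes tested.

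The members and lists were chosen with earlier results of these data known. Named genes are the members, cell type markers, and the genes of each list that passed or otherwise the 3 with the smallest p. The 3 genes nearest to the member with the smallest p are also named. Mef2d, Myh7, Ppp3r2 and genes that overlap members are named outside this rule. Alternatives were DESeq2 1.42.0, RLE normalization, no filter, at least 1 CPM in 2 libraries, limma-voom (limma 3.58.1), a replicate block and leaving out each mouse. Scripts were tested on simulated data. Transcript lengths and positions came from GENCODE M21, which held the symbols of 92.1% of rows.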

Additional observations from a re-analysis of the deposited data

How the results depend on the processing

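The number of genes called, 67 with edgeR's quasi-likelihood test, was 318 with DESeq2 (58.5% of them lower in Eko mice, against 74.6%), 799 without the filter on low counts, 23 with at least 1 CPM in 2 libraries, and between 28 and 240 with a mouse left out, the highest without WT replicate 2. The number of members called, 0, was 1 with DESeq2 (Rcan2), 3 without the filter (Ppp3ca, Rcan1 and Rcan2) and between 0 and 2 with a mouse left out. With the replicate number as a block, 186 genes and 1 member were called, Rcan2, at an adjusted p of 0.0477 in edgeR's test. The study's text calls the mice littermates but, like the labels, ties no replicate number to a litter, and deviations of same-numbered mice from their group means correlated at 0.0909 over genes, so the numbers were not taken as pairs. With a mouse left out, log2 fold changes that changed sign ran from -0.16 to 0.13 for Nfatc1, from -0.0412 to 0.0363 for Nfatc3 and from -0.0198 to 0.31 for Nfatc4. With the longest transcript as the length, Ppp3ca made up 43.5% of the catalytic sum in Eko mice, Ppp3cb 55.2% in WT and 53.1% in Eko mice, and Ppp3cc 4.22% in WT and 3.46% in Eko mice. The causes were not tested. Depth limits Nfatc4 most, with at most 202 counts in a library.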
